A study of Homo sapiens with 14 samples.

Results

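Nascent transcription in A549 cells, an established human lung adenocarcinoma line, was compared between 2 libraries made after 15 min of GSK591 and 2 libraries of untreated cells. These 4 libraries were taken from a series of 14 by their labels alone. GSK591, an inhibitor of the arginine methyltransferase PRMT5, was given at 1 µM, and both groups had DMSO at 0.01%, so that the untreated cells are a vehicle control. The other groups, with 2 libraries each, had MS023, an inhibitor of type I arginine methyltransferases, at 1 µM for 15 min, either inhibitor together with 100 nM dexamethasone (Dex, a synthetic glucocorticoid) for 15 min, or either inhibitor without Dex for 3 h. All cells were of the 1 line, and the labels do not say whether replicates were grown separately, so p-values measure the spread between libraries, which may be technical.

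PRO-seq (precision run-on sequencing) lets RNA polymerases that are already engaged on DNA extend their transcripts by labelled nucleotides in permeabilized cells, and sequences those transcripts. It therefore records transcription at the moment of harvest rather than stored RNA. PRMT5 forms a complex with WDR77 and places symmetric dimethyl marks on arginines of histone tails, of the Sm proteins that build spliceosomal snRNPs, and of other RNA-binding proteins. Its transcription was 13.7 and 13.8 CPM (counts scaled to a common library size) in the untreated libraries and 13.5 and 14.7 CPM in the GSK591 libraries. The log2 change of 0.04 ± 0.16 (SE, n = 2 per group) was not called.

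The libraries held 9606938 and 9343048 counts in untreated cells and 8607006 and 7963227 counts after GSK591. Between replicates, log2 CPM values correlated across genes at r = 0.986 in untreated and 0.983 in GSK591 cells, where genes are not independent of each other. The ratio of chi-square to its degrees of freedom was 2.15 and 3.12, so neither pair was 1 library deposited in duplicate. Mitochondrial genes took 54.0% and 53.8% of counts in untreated cells against 48.6% and 46.9% after GSK591. This difference of -6.15 percentage points had an exact permutation p of 0.333, the smallest that 2 against 2 libraries allow. Epithelial markers of the line were transcribed, with KRT8 at 273 to 324 CPM and AKR1B10 at 216 to 270 CPM. PTPRC and CD3E (leukocytes), VWF (endothelium) and ALB (hepatocytes) had at most 2 counts in any of the 4 libraries, whereas CD14 (2.89 to 3.89 CPM) and COL1A1 (4.76 to 8.16 CPM) were detected.

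Exposure for 15 min raised a small set of genes. Of 21910 genes tested with edgeR's quasi-likelihood test, 67 were called at a Benjamini-Hochberg adjusted p under 0.05, which is 0.306% of those tested. Of these, 65 were higher (0.297% of genes tested) and 2 were lower (0.00913%). The 65 comprised 43 protein-coding genes, 16 genes of repeated sequence that are mostly annotated in the ribosomal DNA (rDNA), and 6 other noncoding genes or pseudogenes. Called genes took 8 of the 130 miRNA genes tested (6.15%), 3 of the 23 rRNA genes and 43 of the 14351 protein-coding genes (0.300%). The 8 miRNA genes are copies of MIR3687, MIR3648 and MIR6724 and are not separate evidence. Rises ranged from 0.50 to 3.51 on the log2 scale, and 23 of them were at least 1. The median over all genes tested was 0.02. In bulk libraries, a change in how many cells transcribe a gene and a change per cell cannot be told apart.

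The calls leaned on single libraries. All 65 raised genes were above both untreated libraries in both GSK591 libraries, a separation of groups in either direction that 38% of all genes tested showed. In 62 of the 65 the value in GSK591 replicate 1 exceeded that in replicate 2, against 50.3% of all genes. Their median rise over the untreated mean was 0.96 in replicate 1 and 0.64 in replicate 2 (log2 of CPM + 0.5). Without GSK591 replicate 1, 4 genes were called, and 3 of them, MIR3687-1, MIR3687-2 and MIR663AHG, were among the 67. The other was MT-TL1, a mitochondrial tRNA gene named here after its value was seen. Without GSK591 replicate 2 the count was 97, without untreated replicate 1 it was 10 and without untreated replicate 2 it was 21. At an unadjusted p under 0.05 there were 1501 genes (6.85%), 1057 higher and 444 lower, where 1096 are expected by chance. In the authors' deposited table of this comparison no gene had an adjusted p under 0.05 (smallest 0.939) and 263 had an unadjusted p under 0.05. The fold changes of the authors' deposited table matched the ratio of both GSK591 libraries to untreated replicate 2 alone. Over 8963 genes with a mean of at least 100 counts, the median absolute log2 difference between table and ratio was 0.000102, against 0.0521 with both untreated libraries and 0.105 with replicate 1 alone. The authors' deposited table therefore compares other libraries than the test used here, and its 0 calls and the 67 are not counts of the same comparison. All 67 genes had the same direction in the authors' deposited table, which shares 3 of the 4 libraries.

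**Figure D1:**
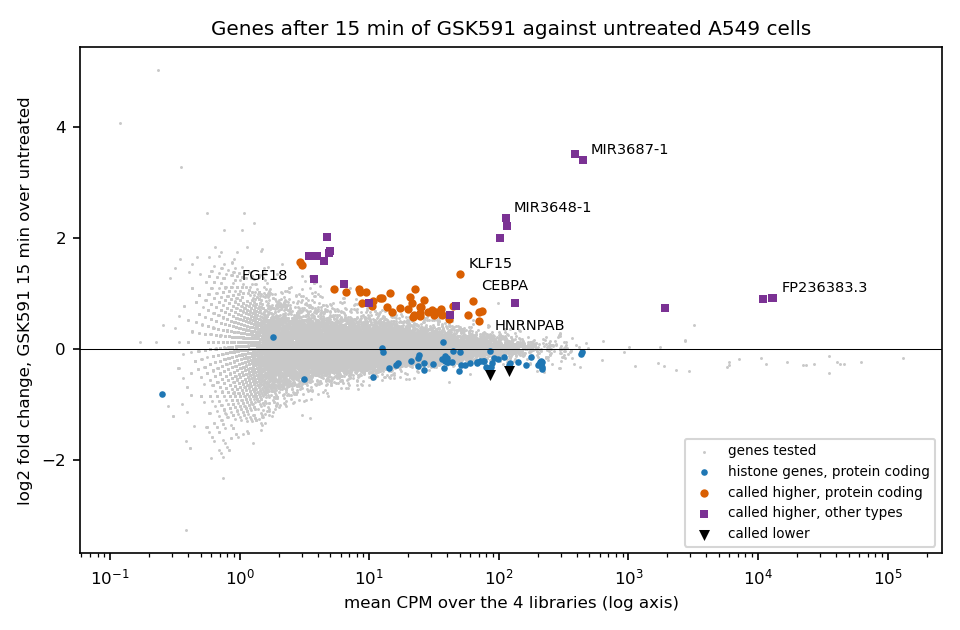
Log2 fold change of GSK591 15 min over untreated (vertical axis) against mean CPM over the 4 libraries (horizontal log axis) for the 21910 genes tested. Orange points and purple squares are the 65 genes called higher, from a log2 change of 0.50 to 3.51, black triangles the 2 called lower, and blue points the protein-coding histone genes, most of which lie just below 0.

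Among called genes, the largest rises were at miRNA genes of the rDNA units on chromosome 21. An rDNA unit is transcribed by RNA polymerase I into 1 long precursor that holds the 18S, 5.8S and 28S rRNAs with spacers around them. The miRNA genes MIR6724, MIR3648 and MIR3687 are annotated within such units upstream of the 5.8S sequence. Mature sequences that RefSeq (GRCh38.p14) lists for these genes, and for the miRNA inside MIR663AHG, are shown because the miRNA genes of these loci are among the largest called rises. They are written 5′ to 3′ with the seed, bases 2 to 8, in capitals.
hsa-miR-3648 (MIR3648-2, chr21:8987026-8987046, plus strand): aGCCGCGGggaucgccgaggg
hsa-miR-6724-5p (MIR6724-2, chr21:8249515-8249537, plus strand): cUGGGCCCgcggcgggcgugggg
hsa-miR-663a (MIR663A, chr20:26208243-26208264, minus strand): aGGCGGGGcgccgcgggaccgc
The 3 seeds differ from each other, and all 3 sequences are rich in G and C. PRO-seq counts over these genes record nascent RNA across the locus, not the mature miRNAs.

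MIR3687-1 (ENSG00000277437.1, chromosome 21, 8208844 to 8208904, plus strand, a single exon) stood at 68.4 and 84.5 CPM in untreated cells and at 1176 and 440.2 CPM after GSK591. Both treated libraries were far above both controls, and replicate 1 was well above replicate 2. The log2 fold change was 3.40 ± 0.37 (SE, n = 2 per group; edgeR adjusted p 2.19e-07). Its near-identical copy MIR3687-2, at 8987370 to 8987430, went from 56.2 and 68.1 CPM to 1020.3 and 400.7 CPM (3.51 ± 0.36, edgeR adjusted p 1.04e-07). Reads from the 2 copies may have been split between them by the counting, so the copies are not separate evidence. Raw counts behind MIR3687-1 were 636 and 772 in untreated and 9983 and 3692 in treated libraries, so that counting error was small beside the difference between replicates.

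MIR3648-1, in the same unit and starting 3158 bases after MIR6724-1 where MIR3687-1 starts 3529 bases after it, went from 34.4 and 39.6 CPM to 293.3 and 84.4 CPM, a log2 change of 2.35 ± 0.33 (edgeR adjusted p 5.44e-05). It was no longer called without GSK591 replicate 1 or with DESeq2. The 4 copies of MIR6724 lay between 1.18 and 2.63 CPM in untreated libraries and between 3.34 and 11.8 CPM in treated ones. They rose by 1.66 to 2.02 on the log2 scale, all 4 were called, and none of them was called without GSK591 replicate 1. MIR663AHG, the host gene of miR-663a on chromosome 20 (26186920 to 26251526, minus strand), went from 38.9 and 42.7 CPM to 226.8 and 99.5 CPM (2.00 ± 0.23, edgeR adjusted p 1.26e-06). With MIR3687-1 and MIR3687-2 it was 1 of the 3 genes called in every one of the settings in which it was tested.

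Further along the unit the levels were higher and the changes smaller. FP236383.3 (chromosome 21, 8437629 to 8438551) is a lincRNA annotated on the minus strand of another copy of the unit. It stood at 9689 and 8393 CPM in untreated cells and 17789.7 and 16253 CPM after GSK591, and the treated libraries were close to each other. Its log2 change was 0.91 ± 0.22 (edgeR adjusted p 0.0473). The 3 copies FP236383.2, FP671120.3 and FP671120.4 rose by 0.90 to 0.91, and FP671120.3 is the one in the unit of MIR6724-1, 5069 bases after its start. RNA5-8SN3, a 5.8S rRNA gene in a further copy of the unit, went from 1565 and 1312 CPM to 2562 and 2240.4 CPM (0.74 ± 0.17, edgeR adjusted p 0.0444). The 5.8S copies RNA5-8SN1, RNA5-8SN2 and RNA5-8SP10 had log2 changes of 0.70 to 0.72 with edgeR adjusted p of 0.0521 to 0.067 and were not called. The calls of the lincRNAs and RNA5-8SN3 lie close to the threshold. They were lost with DESeq2 size factors, with the DESeq2 Wald test and with a filter of at least 2 CPM. Each lincRNA was called in 6 of 13 alternatives, and lost when any of the compared libraries was left out. RNA5-8SN3 was called in 7 of 13. The strand setting of the counting is not given in the sources used here, so reads from the strand of the precursor and from its opposite strand cannot be told apart at these minus-strand genes.

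**Figure D2:**
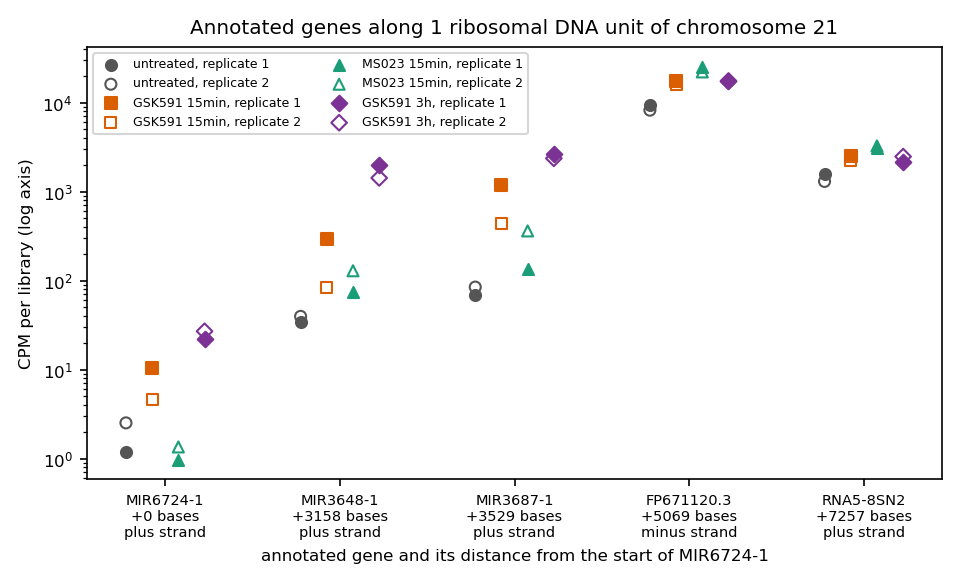
CPM per library (vertical log axis) for 5 annotated genes in order along 1 rDNA unit, with their distance in bases from the start of MIR6724-1. Filled and open symbols are replicates 1 and 2, and the GSK591 15 min squares lie above the untreated circles at each gene, with the widest gap at MIR3687-1 (68.4 and 84.5 against 1176 and 440.2 CPM).

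Over the list of rDNA-repeat RNA genes, 13 were tested and 10 were called, all higher. The median log2 change was 1.76, beside 0.02 over all genes, of which 0.306% were called. The called members were copies of MIR3687, MIR3648 and MIR6724, the rRNA gene RNA5-8SN3, and MIR663AHG, which lies on chromosome 20. Reads may have been split between copies, so the 10 are not separate evidence and their share cannot be weighed against 0.306%. Without GSK591 replicate 1, 3 of the 13 were called and the median was 1.03, and without either 1 of the untreated libraries 6 were called. The whole chromosome 21 rDNA region took 4.81% and 4.30% of counts in untreated libraries and 8.76% and 8.21% after GSK591. RNA5S14 and RNA5S4, copies of the 5S rRNA gene on chromosome 1 that RNA polymerase III transcribes, rose by 1.67 ± 0.31 and 1.26 ± 0.29 (edgeR adjusted p 0.00336 and 0.036). They rest on few reads, with 12 and 18 counts for RNA5S14 in untreated and 48 and 40 in treated libraries. Of the Pol I and nucleolar factor genes, which include UBTF and the Pol I subunits, 0 of 34 were called and 2 had an unadjusted p under 0.05. Their median log2 change was 0.01.

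The 43 raised protein-coding genes are described by what they encode, and no theme was tested among them. For 36 of the 43, RefSeq (GRCh38.p14) gave the 250 bases before the start. The median GC content of these was 73.6%, against 65.2% for the 10538 of 13079 tested protein-coding genes with at least 2 CPM that had an entry. CpG pairs numbered 29 and 21 per 250 bases. The GC box GGGCGG, searched on both strands, was in 29 of the 36 (80.6%) and in 67.5% of the comparison promoters. CCAAT was in 41.7% against 34.6%, and TATAAA in 4 of the 36 (11.1%) against 5.50%. The other motifs searched, all binding sites of transcription factors, were not more frequent as a rule. The E box was in 8.33% against 8.84%, CRE in 0% against 2.81% and ETS in 5.56% against 6.96%. NRF1 was in 0% against 1.95%, and AP-1 in 2.78% against 2.53%. These figures describe the sequences, and no test was made of them. The last 120 bases before the start are shown for 4 raised genes whose exons overlap no other annotated gene, with GC boxes in capitals, to show what such promoters look like.
KLF15 (chr3:126357409-126357528, minus strand): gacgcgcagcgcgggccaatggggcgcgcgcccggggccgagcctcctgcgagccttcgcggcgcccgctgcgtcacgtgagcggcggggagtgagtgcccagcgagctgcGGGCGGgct
FGF18 (chr5:171419527-171419646, plus strand): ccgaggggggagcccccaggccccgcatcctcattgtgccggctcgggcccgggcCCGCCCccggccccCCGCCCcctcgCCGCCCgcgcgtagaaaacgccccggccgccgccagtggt
CITED4 (chr1:40862364-40862483, minus strand): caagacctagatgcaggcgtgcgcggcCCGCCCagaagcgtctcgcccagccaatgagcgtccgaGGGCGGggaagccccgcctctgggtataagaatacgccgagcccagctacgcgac
SOCS1 (chr16:11256205-11256324, minus strand): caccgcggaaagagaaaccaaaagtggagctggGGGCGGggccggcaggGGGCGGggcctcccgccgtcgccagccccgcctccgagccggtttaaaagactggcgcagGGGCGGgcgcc
GC content over these stretches was 80.0%, 82.5%, 67.5% and 74.2%, with 1, 3, 2 and 3 GC boxes in that order.

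Of the transcription regulators, KLF15 rose most. KLF15, a Krüppel-like zinc finger factor that glucocorticoids are known to induce, lies on chromosome 3 (ENSG00000163884.3, 126342635 to 126357442, minus strand, GRCh38). It stood at 26.3 and 30.7 CPM in untreated cells and 87.3 and 57.5 CPM after GSK591. The groups were well apart, and the treated replicates differed from each other by more than the controls did. The log2 fold change was 1.34 ± 0.18 (edgeR adjusted p 2.98e-05). Without GSK591 replicate 1 it was 1.01, and the KLF15 call was lost there and with the DESeq2 Wald test. CEBPA, a basic leucine zipper factor of epithelial and liver differentiation, went from 46.1 and 43.1 CPM to 87.7 and 74.5 CPM (0.86 ± 0.13, edgeR adjusted p 0.000263). The CEBPA call was lost in the same 2 alternatives, without GSK591 replicate 1 and with the DESeq2 Wald test. CEBPA shares exonic sequence with antisense genes. CITED4, a coactivator that binds CBP and p300, went from 17.96 and 19.16 CPM to 39.7 and 28.3 CPM, and its exons overlap no other gene (0.87 ± 0.15, edgeR adjusted p 0.00156). GBX2, a homeobox factor with an annotated gene overlapping on the opposite strand, rose by 1.07 ± 0.20. Outside KLF15, the genes of this paragraph, and the other protein-coding genes below except FGF18 and EFNB2, were chosen after their values were seen.

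Signalling genes among the 43 included ligands, kinases and inhibitors. FGF18, a fibroblast growth factor, went from 1.29 and 1.64 CPM to 6.01 and 2.74 CPM (1.57 ± 0.36, edgeR adjusted p 0.0395). EFNB2, the membrane ligand ephrin B2, went from 1.40 and 1.75 CPM to 5.65 and 3.34 CPM (1.51 ± 0.33, edgeR adjusted p 0.0212). Both are low, with 12 to 16 counts in each untreated library, and both calls were lost without untreated replicate 1, untreated replicate 2 or GSK591 replicate 1. MAP3K1, a kinase upstream of JNK and ERK, went from 5.70 and 5.47 CPM to 13.3 and 9.42 CPM, and FGFBP3, which binds fibroblast growth factors, from 7.96 and 11.3 CPM to 21.5 and 16.9 CPM. SOCS1, an inhibitor of cytokine signalling through JAK kinases, stood at 21.7 and 25.2 CPM in untreated cells and 42.5 and 33.4 CPM after GSK591. Its log2 change was 0.69 ± 0.14 (edgeR adjusted p 0.0133). ROCK2, a kinase that acts on the actin cytoskeleton, rose by 0.61 ± 0.13. At EFNB2, MAP3K1 and FGFBP3 an annotated gene overlaps on the opposite strand.

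The RNA-binding protein genes HNRNPAB, HNRNPLL and YBX3 rose as well. HNRNPAB went from 56.0 and 59.2 CPM to 102.3 and 81.1 CPM (0.67 ± 0.11, edgeR adjusted p 0.000857). HNRNPLL, a splicing regulator, went from 23.23 and 27.92 CPM to 41.8 and 38.7 CPM (0.66 ± 0.12, edgeR adjusted p 0.00249), with treated replicates close together. YBX3, a cold-shock domain protein, went from 14.7 and 16.1 CPM to 28.6 and 25.8 CPM (0.82 ± 0.13, edgeR adjusted p 0.000435). CRLS1, the cardiolipin synthase of mitochondria, stood at 14.5 and 14.6 CPM in untreated cells and at 36.1 and 25.3 CPM after GSK591. Its log2 change of 1.08 ± 0.16 (edgeR adjusted p 0.000101) was called in 13 of 14 alternatives and lost without GSK591 replicate 1, where the adjusted p was 0.188. The other called protein-coding genes included SRXN1 (sulfiredoxin), SLC39A14 (a zinc transporter), PLOD2 (a collagen lysyl hydroxylase), TNKS2 (a tankyrase), HCN2 and KCNG3 (ion channels) and INTS15 (an Integrator subunit). They rose by 0.56 to 0.91. SRXN1 was called in 4 of 13 alternatives, SLC39A14 and PLOD2 in 4 of 14 and TNKS2 in 5 of 14. HCN2 was called in 7 of 13, KCNG3 in 7 of 14 and INTS15 in 9 of 14. Of the 43 genes, 21 had no exonic overlap with another gene. Among those named in this paragraph, HNRNPAB, HCN2 and SRXN1 had such an overlap. With overlapping and rDNA genes left out of the fit, 20 of the 26 called genes that could still be tested were called.

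Further called protein-coding genes had other known roles. ADSS1, a muscle-type adenylosuccinate synthase of purine synthesis, went from 17.6 and 18.8 CPM to 35.7 and 26.0 CPM (0.76 ± 0.17, edgeR adjusted p 0.0279). ATP6V0A2, a subunit of the vacuolar proton pump, went from 17.1 and 20.0 CPM to 35.0 and 27.4 CPM (0.75 ± 0.15, edgeR adjusted p 0.0103). DHRS11, a short-chain dehydrogenase, went from 44.0 and 47.7 CPM to 75.7 and 64.3 CPM (0.61 ± 0.12, edgeR adjusted p 0.00493). In each of these the lower treated library was still above the higher control. DYNC1LI1, a light intermediate chain of dynein, had treated replicates almost level, at 44.4 and 43.5 CPM against 27.7 and 30.3 CPM (0.60 ± 0.12, edgeR adjusted p 0.00851). TBC1D30, a Rab GTPase-activating protein, went from 4.52 and 4.27 CPM to 9.19 and 8.70 CPM (1.02 ± 0.22, edgeR adjusted p 0.0181), with replicates close in both groups. Its call was lost when any 1 of the 4 libraries was left out. DONSON, a DNA replication factor whose exons overlap SON, went from 12.8 and 15.4 CPM to 31.0 and 22.7 CPM (0.93 ± 0.16). SSNA1, a microtubule-binding protein, went from 26.78 and 28.03 CPM to 50.9 and 38.6 CPM (0.71 ± 0.13). NANOS1, an RNA-binding repressor of translation, had the smallest called rise, from 57.4 and 57.9 CPM to 87.3 and 76.4 CPM (0.50 ± 0.11, edgeR adjusted p 0.0191). At ATP6V0A2 and NANOS1 an annotated gene overlaps on the opposite strand.

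The 6 other noncoding genes and pseudogenes were LINC00674, LINC01003, LOC389906, AC009299.1, AC010501.1 and AC027117.2. LOC389906, a lincRNA on chromosome X chosen after its values were seen, went from 33.9 and 35.6 CPM to 64.5 and 53.8 CPM (0.77 ± 0.13, edgeR adjusted p 0.000777). AC009299.1, a processed pseudogene on chromosome 2, went from 99.8 and 93.3 CPM to 202.9 and 138.3 CPM (0.82 ± 0.17, edgeR adjusted p 0.0133). LINC00674 was low and its controls differed, at 1.29 and 3.18 CPM against 8.36 and 5.01 CPM (1.58 ± 0.32, edgeR adjusted p 0.013). It was not called without untreated replicate 1, without GSK591 replicate 1 or with DESeq2.

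Values of the authors' deposited table are those against untreated replicate 2. For KLF15 the authors' deposited table holds a log2 fold change of 1.23 with a standard error of 0.480 and an unadjusted p of 0.0104. For MIR3687-1 the authors' deposited table holds 3.25 with a standard error of 0.911, and for CRLS1 1.07 with 0.261. The fit without untreated replicate 1 called 10 genes. The median standard error in the authors' deposited table was 0.364 over genes. In it, 60 of the 67 called genes had an unadjusted p under 0.05, as did 263 genes over the whole table. Its fold changes share libraries with the test that chose the 67, so low p-values at these genes are not separate evidence.

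**Figure D3:**
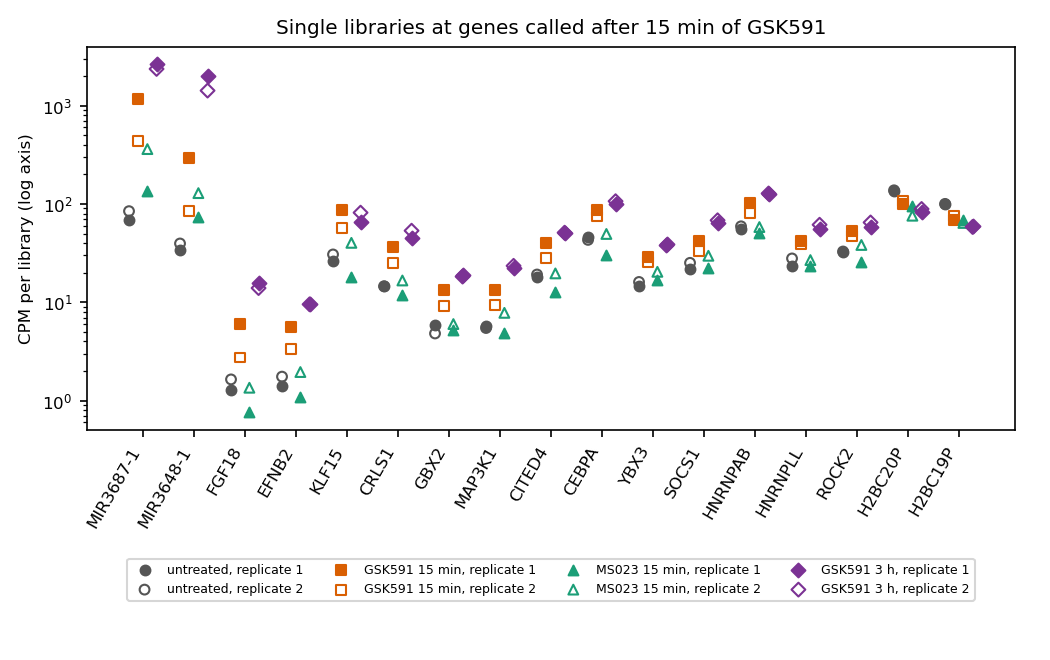
CPM in single libraries (vertical log axis) for a selection of the genes called after 15 min of GSK591. Filled and open symbols are replicates 1 and 2. At the raised genes both GSK591 15 min squares lie above both untreated circles, as at KLF15 (26.3 and 30.7 against 87.3 and 57.5 CPM), and the filled square lies above the open one.

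The 2 genes that fell were histone pseudogenes on chromosome 1 that overlap each other on opposite strands. H2BC19P (149842875 to 149846486, plus strand) went from 98.9 and 100.2 CPM to 68.5 and 75.2 CPM (-0.47 ± 0.10, edgeR adjusted p 0.0116). H2BC20P (149844498 to 149850937, minus strand) went from 136.6 and 137.7 CPM to 101.03 and 106.3 CPM (-0.40 ± 0.10, edgeR adjusted p 0.049). Without a known strand setting these may be 1 signal. Neither was called with library size alone as scaling, nor without any one of untreated replicate 1, untreated replicate 2 and GSK591 replicate 1. The protein-coding histone genes encode the core and linker histones and are transcribed in S phase without polyadenylation. None of 58 was called, and 31 had an unadjusted p under 0.05. When only the compared libraries were fitted 5 were called lower, and 1 was called lower with no count filter and 1 with GC and length trends removed. Their median log2 change was -0.25, with 55 of 58 below 0 (46.8% of all genes were below 0) and 49 lower in both treated libraries than in both controls, as were 3702 of all 21910 genes (16.9%). With library size alone the median was -0.18 and 52 were below 0. H1-4, a linker histone gene that like H2BC13 and CLK1 was chosen after its values were seen, had 234.3 and 246.8 CPM in untreated and 183.2 and 189.8 CPM in treated libraries. Its log2 change of -0.37 ± 0.10 had an edgeR adjusted p of 0.12. The smallest adjusted p among the 58 was 0.0799, at H2BC13.

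The other lists had no called member. Immediate early genes (34 tested), p53 targets (30), heat shock and stress genes (27), ribosomal proteins (79), pause control genes (29), snoRNA host genes (25), Pol II snRNAs (16), Pol III RNAs (4) and nuclear lncRNAs (9) had median log2 changes from -0.18 to 0.04. The Pol III median of -0.18 rests on 4 genes, and was 0.11 without GSK591 replicate 1 and -0.63 without replicate 2. In these lists 0 to 4 members had an unadjusted p under 0.05, and DESeq2 called none of their members either. With no count filter, or when only the compared libraries were fitted, 1 immediate early gene and 1 SR splicing factor gene were called lower and 1 nuclear lncRNA higher, and the latter fit also called 1 p53 target higher and 1 snoRNA host gene lower. The gene groups tied to PRMT5 were likewise uncalled. Arginine methylation genes had a median of 0.01 over 14 genes, Sm and SMN protein genes -0.02 over 23 genes and SR splicing factor genes -0.03 over 20 genes. SNRPB, a Sm protein that PRMT5 methylates, stood at 29.5 and 30.9 CPM in untreated and 31.1 and 29.4 CPM in treated libraries (0.00 ± 0.12). CLK1, a kinase of SR proteins, had the smallest adjusted p of the SR list (0.0825), with 24.6 and 27.3 CPM against 17.3 and 18.8 CPM. Of 29 mitochondrial genes, 0 were called and 6 had an unadjusted p under 0.05, DESeq2 called 1 as lower, and the median was -0.28. Of the mitochondrial genes, 6 were called lower when only the compared libraries were fitted, and 5 lower and 1 higher with no count filter. Under library size alone the medians of immediate early genes, p53 targets, ribosomal proteins, snoRNA host genes, Sm and SMN protein genes and SR splicing factor genes turned positive, at 0.04 to 0.06, with the median of all genes at 0.08.

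**Figure D4:**
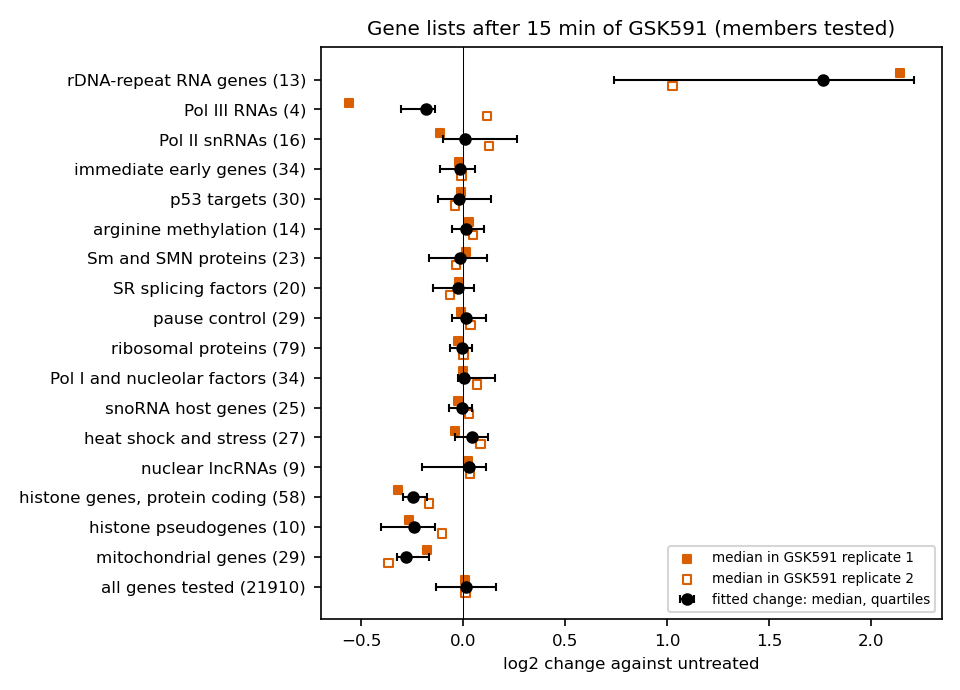
Median log2 change per gene list after 15 min of GSK591 (black points, bars from the lower to the upper quartile of the members) with the median in each treated library (orange squares). The rDNA-repeat RNA genes lie at 1.76 (1.03 without GSK591 replicate 1), the protein-coding histone genes and mitochondrial genes lie at -0.25 and -0.28, and most other lists lie near 0.

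The raised genes were then followed through the other libraries. MS023 for 15 min, the matched dose and time of the other inhibitor, gave medians over the 65 genes of -0.22 and 0.22 above the untreated mean in its 2 libraries. All 43 protein-coding genes had a higher fitted level with GSK591 than with MS023 at 15 min, and 41 were called in that direct contrast (1.09% of all genes were called), which shares the GSK591 libraries with the choice of the genes. Of all 65, 52 were called higher and 0 lower, with a median difference of 0.88. KLF15 was at 18.2 and 40.2 CPM with MS023, a difference of 1.36 ± 0.19 (edgeR adjusted p 7.95e-05), and CEBPA at 30.2 and 49.5 CPM, a difference of 1.05 ± 0.14 (edgeR adjusted p 5.11e-05). The contrast leaned on scaling and on single libraries. With library size alone 19 of the 65 were called and 29 genes in all, with DESeq2 32 of the 65, and without GSK591 replicate 1 only 4. MS023 replicate 2 had 5768312 counts, the fewest of the series, and mitochondrial shares were 44.5% and 39.8% with MS023, so composition differed between the groups as well, and its part in the difference was not tested.

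Not all raised genes were lower with MS023. The 4 minus-strand rDNA lincRNAs, RNA5-8SN3 and AC009299.1, a processed pseudogene, had higher values with MS023 than with GSK591. FP236383.3 was at 25939.8 and 22618 CPM with MS023, and its difference of -0.51 ± 0.21 (GSK591 minus MS023) was not called (edgeR adjusted p 0.381). MIR3648-1 was at 73.7 and 128.9 CPM and MIR663AHG at 103.7 and 131.05 CPM with MS023, between the untreated and the GSK591 values or overlapping the latter. Their differences of 0.91 ± 0.31 and 0.48 ± 0.22 were not called (edgeR adjusted p 0.199 and 0.44).

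After 3 h of GSK591, 57 of the 65 genes had a higher fitted level than at 15 min. They had a median of 1.09 and 1.25 above the untreated mean in the 3 h libraries, against 0.96 and 0.64 at 15 min. In the direct contrast of 3 h with 15 min, 29 of 65 were called higher and 0 lower, with a median of 0.37, where 6.41% of all genes were called. Without GSK591 15 min replicate 2 it was 11 of 65, and the count over all genes was 388 instead of 1405 (665 without replicate 1). MIR3648-1 reached 1996 and 1423 CPM at 3 h, higher than at 15 min by 3.18 ± 0.31 on the log2 scale (edgeR adjusted p 6.64e-09). FGF18 reached 15.6 and 14.0 CPM (1.75 ± 0.24 above 15 min, edgeR adjusted p 5.51e-06) and SOCS1 63.8 and 68.2 CPM (0.80 ± 0.13, edgeR adjusted p 7.52e-05). KLF15, at 65.7 and 81.6 CPM, did not differ from its 15 min value beyond its error (0.02 ± 0.17), nor did FP236383.3 (0.08 ± 0.21). The series holds untreated cells labelled 15 min only, so time in culture and time with the inhibitor cannot be told apart in this contrast.

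Contrasts that share no library with the 2 groups whose comparison chose the 65 genes were also read. Their libraries did enter the fit of all 14 libraries that set the spread for those calls, so the choice was not fully independent of them. Between 15 min and 3 h of MS023, 57 of the 65 were called higher and 6 lower, where 12% of all genes were called, 1676 higher and 964 lower. The median log2 difference was 1.19, beside -0.01 over all genes. The MS023 15 min libraries in it differed from each other, with medians of -0.22 and 0.22 over the 65 genes against the untreated mean. Here too, time in culture and time with the inhibitor cannot be told apart. The contrasts of this paragraph were not repeated under other scaling or with a library left out. CEBPA was higher at 3 h by 1.37 ± 0.14 (edgeR adjusted p 1.09e-09), KLF15 by 1.14 ± 0.19 (adjusted p 2.88e-05) and FGF18 by 3.80 ± 0.33 (adjusted p 4.31e-11). The 6 lower genes were the 4 rDNA lincRNAs of the minus strand, RNA5-8SN3 and AC009299.1, and the 2 uncalled ones were TBC1D30 and VPS9D1. In the contrast of GSK591 with MS023 at 3 h, 0 of 65 and 0 of all genes were called (1319 of all genes had an unadjusted p under 0.05), and the median over the 65 was 0.03. With Dex added for 15 min the contrast of the inhibitors also called 0 genes (1659 with an unadjusted p under 0.05), and the median over the 65 was -0.14.

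Libraries with Dex held the raised genes above the untreated level under both inhibitors. The medians over the 65 genes were 1.02 and 0.79 with GSK591 and Dex, and 0.96 and 1.06 with MS023 and Dex. KLF15 stood at 49.8 and 42.2 CPM with GSK591 and Dex and at 55.7 and 68.7 CPM with MS023 and Dex, above both untreated libraries in each case. CEBPA stood at 94.5 and 76.2 CPM and at 88.0 and 99.6 CPM in the same libraries. These values share the untreated libraries with the comparison that chose the genes and are given as levels. Over the 65 genes, MS023 for 15 min was the 1 of the 6 treated groups whose medians lay on both sides of 0. Over the 16 repeat RNA genes its medians were 0.78 and 1.31, and against the shared untreated libraries 8 of the 16 were called higher with MS023 (9 of the 65, where 0.183% of all genes were called). MIR3687-1 was higher with MS023 than in untreated cells by 1.69 ± 0.35 (edgeR adjusted p 0.0228) and MIR663AHG by 1.52 ± 0.24 (edgeR adjusted p 0.000238).

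**Figure D5:**
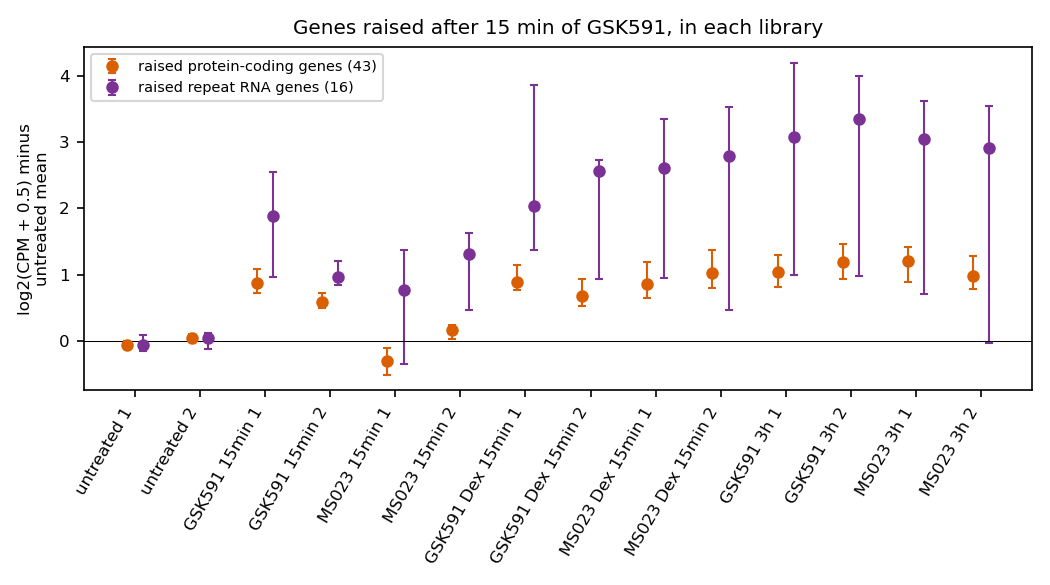
Median log2(CPM + 0.5) minus the untreated mean, with bars from the lower to the upper quartile of the genes, in each of the 14 libraries for the 43 raised protein-coding genes (orange) and the 16 raised repeat RNA genes (purple). The orange medians are 0.87 and 0.59 after 15 min of GSK591, -0.29 and 0.18 after 15 min of MS023, and 0.68 to 1.20 in the other treated libraries.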

How the data were processed

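The authors deposited a table of whole-number read counts per gene for 14 libraries. It was made with featureCounts 2.0.1 of the Subread package on hg38, per the submitters' processing notes; aligner, counting feature, strand and duplicate handling are not given in the sources used here. The deposited DESeq2 table for this comparison gives a log2 fold change with its standard error, a test score, a p-value and adjusted p-value, and a mean signal per gene, per the file headers; which libraries its fold changes match was read from ratios of mean counts scaled by DESeq2 size factors. All 58780 gene identifiers matched GENCODE release 29 (GRCh38), the source of coordinates, types and overlaps.

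Counts were tested as deposited with edgeR 4.0.16 (R 4.3.3, quasi-likelihood, TMM scaling, filterByExpr). All 14 libraries entered one fit with 7 group coefficients and 7 residual degrees of freedom (biological coefficient of variation 0.0728). Genes with an adjusted p under 0.05 were called. CPM values use TMM-scaled library sizes, and changes are relative to the bulk of genes. Functions were checked on counts simulated for this comparison, in which 200 genes were altered by a log2 change of 1. Of the 198 such genes tested, 67.2% were found by edgeR and 51.0% by DESeq2 1.42.0, with 12 and 1 unaltered genes called. Named genes were the 15 largest rises and falls among called genes with at least 2 CPM and separate groups, the 10 called genes of highest level, called list members, the 2 highest members per list, and PRMT5, SNRPB and PRMT1. The genes, lists and rule were chosen with earlier results of these data known. Lists are described by counts and medians, with no set test. Some items are not reported here. Alternatives covered scaling, count filter, tool, libraries fitted, replicate block, overlapping genes, and GC and length trends.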

Additional observations from a re-analysis of the deposited data

Results flagged for a closer look

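Only called genes named for the largest rises, the largest falls or the highest levels were looked at here. Of these, 11 were called in the direct contrast of the inhibitors at 15 min, where 239 (1.09%) were called over all genes. That contrast shares the GSK591 libraries with the choice of the genes, which favours a positive difference. Copies of MIR3687 and of MIR6724 are not separate evidence. The log2 difference of GSK591 minus MS023 was 1.88 ± 0.33 (SE; edgeR adjusted p 0.00131) at MIR3687-2, 1.71 ± 0.34 (0.00441) at MIR3687-1, 2.71 ± 0.40 (0.000114) at MIR6724-1, 2.05 ± 0.35 (0.000848) at MIR6724-2, 1.98 ± 0.33 (0.000583) at MIR6724-3 and 1.99 ± 0.44 (0.013) at MIR6724-4. It was 1.55 ± 0.34 (edgeR adjusted p 0.00985) at LINC00674, 2.10 ± 0.41 (0.00366) at FGF18, 1.62 ± 0.34 (0.00857) at EFNB2, 1.36 ± 0.19 (7.95e-05) at KLF15 and 1.35 ± 0.30 (0.0128) at RNA5S4. Both groups hold 2 libraries.

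Between 15 min and 3 h of GSK591, 11 genes of the same selection were called, where 1405 (6.41%) were called over all genes. This contrast also shares the GSK591 15 min libraries with the choice of the genes, and copies are again not separate evidence. The log2 difference of 3 h minus 15 min was 1.63 ± 0.33 (SE; edgeR adjusted p 0.00108) at MIR3687-2, 1.63 ± 0.34 (0.00154) at MIR3687-1, 3.18 ± 0.31 (6.64e-09) at MIR3648-1, 3.19 ± 0.32 (7.98e-09) at MIR3648-2, 1.69 ± 0.22 (1.58e-06) at MIR6724-1, 2.14 ± 0.20 (2.96e-09) at MIR6724-2, 1.74 ± 0.20 (1.79e-07) at MIR6724-3 and 1.71 ± 0.27 (5.52e-05) at MIR6724-4. It was 1.75 ± 0.21 (edgeR adjusted p 6.54e-07) at MIR663AHG, 1.75 ± 0.24 (5.51e-06) at FGF18 and 1.08 ± 0.24 (0.00321) at EFNB2. Groups of 2 libraries are too small for a check of single outlying libraries.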

How the results depend on the processing

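All 67 called genes kept their direction in each of the 14 alternatives to the main comparison in which they were tested, but their calls did not hold. The 67 genes became 126 with no count filter, 25 with the DESeq2 Wald test, 187 when only the libraries compared were fitted and 20 with overlapping and rDNA genes left out (fewer genes tested), and 4 to 97 with a library left out. The 239 genes between GSK591 and MS023 at 15 min became 29 with library size alone and 83 with DESeq2, and 14 to 189 with a GSK591 library left out. The 1405 genes between 3 h and 15 min of GSK591 became 712 with library size alone (582 higher and 130 lower, against 799 and 606) and 659 with DESeq2, and 388 to 665 with a 15 min library left out. Where not stated, the cause was not tested. In leave-one-out fits the lone library is assumed to vary like the other groups. With the replicate block, the counts were 74, 248 and 1496. The same-number deviations of untreated and GSK591 libraries correlated at 0.01. Over 21 pairs of groups they correlated from -0.08 to 0.16, with 2 pairs over 0.1. No strong pairing by number was seen, but such values cannot exclude weak pairing or a shared batch. With GC and length trends removed, an alternative chosen after seeing the data, 69 genes were called (65 higher, 4 lower), 62 of them among the 67. Of single genes and list medians under all alternatives, 1212 values were the same by direction and threshold or spread, 293 lost a call, 36 moved and 8 gained a call. The mitochondrial share differed by -6.16 points over genes past the filter. With 2 libraries a group, the median SE of a log2 change was 0.205. The simulation found 67.2% of the genes altered by a log2 change of 1. It drew genes independently, with no shift shared by the genes of a library, so this share checks the functions and is not the sensitivity of these libraries.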
